A study of Mus musculus with 54 samples.

Results

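The genes described here are 10 that mark or regulate Sertoli cells, the somatic nurse cells of the seminiferous tubule, out of 26264 entries counted in mouse testis and ovary. They were taken by symbol from the deposited count tables: 5 transcription factors (Gata4, Wt1, Sox9, Dmrt1 and Gata1), the X-linked homeobox genes Rhox5 and Rhox8, the tight junction protein Cldn11, and the secreted proteins Clu and Trf. In the files they carry the Entrez identifiers 14463, 22431, 20682, 50796, 14460, 18617, 434768, 18417, 12759 and 22041, in that order. All 10 were found in both tables. All 10 passed the filter on low counts in every testis comparison, and 9 passed it in ovary, where Dmrt1 did not.

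Messenger RNA was sequenced in 54 libraries, 27 from testis and 27 from ovary, in 9 groups of 3 libraries (A, B and C) per tissue. The F1 animals were exposed from 8.5 days after conception, and thus from before birth. The drinking water held ibuprofen, its metabolite 2-hydroxyibuprofen (2hIBU), diclofenac and the synthetic oestrogen 17a ethinyl-estradiol. The comparisons ask whether transcript levels differ after the mixture itself, and in offspring of 1 or 2 exposed parents. The labels leave out the strain, the age of the F2 animals and how many animals went into a library. Dose 1 held 11.3 ng/L of ibuprofen, 90 ng/L of 2hIBU, 22.5 ng/L of diclofenac and 2.25 ng/L of ethinyl-estradiol. Dose 2 held 113, 225, 112 and 45 ng/L of the same compounds. For F1 control animals the water held 0.001% ethanol. F1 males were sampled at 10 weeks and F1 females at 8 weeks. The F2 animals, labelled with no treatment, came from control parents or from crosses in which the mother had dose 1, the mother had dose 2, the father had dose 1, the father had dose 2, or both parents had dose 2. The codes of the crosses were read with the male first, as the sample titles have them. Whether libraries of a group stem from different animals or litters is not stated, and every p-value below is relative to the spread among these libraries, which may be technical.

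Sertoli cells hold and feed the germ cells, and their tight junctions form the blood-testis barrier. In the fetal gonad Sox9, acting with Gata4 and Wt1, directs supporting cells to the Sertoli fate, and Dmrt1 keeps adult Sertoli cells from taking on granulosa cell features. Adult Sertoli cells respond to follicle-stimulating hormone and to androgen, Rhox5 being a classic androgen-dependent gene, and secrete carriers such as clusterin and transferrin into the tubule. Gata4 and Wt1 are also made by granulosa cells of the ovary, and Gata4 by Leydig cells, the steroid-making cells between the tubules.

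RefSeq sequence of the 250 bases before the transcription start (build GRCm38.p6) was at hand for 3 of the 10 genes, and 2 are shown to set an androgen-dependent homeobox gene beside a junction gene. Rhox5 lies on the plus strand with the stretch chrX:37754358-37754607, and Cldn11 on the plus strand with chr3:31149670-31149919. The capitals in Rhox5 mark a SOX match and an androgen receptor half-site match that overlap.
Rhox5: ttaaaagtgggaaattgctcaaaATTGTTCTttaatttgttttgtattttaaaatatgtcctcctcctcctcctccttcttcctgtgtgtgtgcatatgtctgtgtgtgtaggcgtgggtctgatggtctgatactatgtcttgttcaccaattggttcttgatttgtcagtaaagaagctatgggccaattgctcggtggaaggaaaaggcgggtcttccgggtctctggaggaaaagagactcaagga
Cldn11: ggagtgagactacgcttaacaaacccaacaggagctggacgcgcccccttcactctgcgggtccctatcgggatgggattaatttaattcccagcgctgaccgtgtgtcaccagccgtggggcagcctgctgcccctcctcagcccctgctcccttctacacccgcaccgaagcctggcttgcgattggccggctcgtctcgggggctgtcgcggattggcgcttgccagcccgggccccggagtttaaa
Both strands were searched for 3 kinds of word. A word for GATA factors was AGATAA, one that differs from this by a final G (AGATAG), or either with T in place of its first base (TGATAA or else TGATAG). The word for SOX factors was AACAAT. The word for an androgen receptor half-site was AGAACA. In Rhox5 the SOX word starts 227 bases and the half-site 225 bases before the start, both on the minus strand, and no GATA word was found. Cldn11 and Gata1 (chrX:7967911-7968160, minus strand) held none of these words in the window. Among 32851 promoters of the same length, 26.5% held a GATA word, 9.42% the SOX word and 16.1% the half-site, so a match in 1 promoter is common. The files' own build is mm39, and no coordinates on it are given here.

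Libraries held 31835494 to 46432282 counts in testis (median 37717087) and 35642474 to 101817720 in ovary (median 43773645). Levels are counts per 1000000 counts of a library (CPM) after TMM scaling over the 27 libraries of a tissue, with scaling factors of 0.957 to 1.02 in testis and 0.947 to 1.04 in ovary. The tissue labels held: Prm1 of elongating spermatids was 1799 CPM or more in every testis library and 0.780 CPM or less in ovary, while Foxl2 of granulosa cells had 0 to 5 counts in testis and 6725 or more in ovary. The Sertoli markers Fshr (76 to 173 counts), Inha (1857 to 3395) and Aard (1926 to 2912) were counted in every testis library. In whole tissue, fewer cells of a type and less RNA per cell cannot be told apart.

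In testis, Clu was by far the most abundant of the 10 transcripts per length of its exons. Over 27 testis libraries Clu averaged 188 ± 23.4 CPM per kilobase (SD) of merged exons, and Cldn11 33.4 ± 2.82. The other 8 genes lay between 9.08 ± 2.36 for Rhox5 and 3.01 ± 0.268 for Gata1, with Rhox8 at 6.95, Dmrt1 at 6.73, Wt1 at 6.45, Gata4 at 5.72, Sox9 at 4.27 and Trf at 3.70 CPM per kilobase. Neighbours in that stretch, from Rhox8 to Gata4, differed by less than their SDs. Dmrt1 varied least from library to library, 1.31-fold from lowest to highest, and Sox9 most, 2.39-fold. Within groups the coefficient of variation averaged 4.58% for Dmrt1 and 15.3% for Sox9. Counting noise sets a floor on this: Gata1 had 214 to 337 counts a library and Clu 17970 to 33620.

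Against unexposed ovary, 5 of the 10 genes were higher in testis and 4 lower, by edgeR's quasi-likelihood test with Benjamini-Hochberg adjustment over 19176 genes, in 12 unexposed libraries with generation as a term. Of all genes tested 90.1% passed this test, 45.1% higher and 45% lower, so passing it sets no gene apart and only size and direction describe the members. The member median was a log2 difference of 0.21 against -0.01 over all genes. CPM values of the tissues were scaled separately, and the log2 differences come from a joint scaling.

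Dmrt1 separated the tissues most. The 6 unexposed testis libraries held 17.0 to 19.3 CPM of Dmrt1 (median 18.1), and the 6 ovary libraries held 3 counts in all, against 4349 in testis. The ratio of the shares was 1629, with an exact binomial 95% interval of 557.2 to 7904 that covers counting error only. Over all 27 ovary libraries 17 had 0 counts of Dmrt1 and the highest had 4. A count of 0 allows up to 3 counts, which is 0.0438 to 0.0843 CPM of Dmrt1 in the libraries at 0.

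Rhox5, Sox9 and Cldn11 were also testis genes here. Rhox5 ran from 5.02 to 10.4 CPM in unexposed testis (median 8.28) and from 0.211 to 0.553 in ovary (median 0.350), a log2 difference of 4.96 ± 0.25 (SE, adjusted p = 1.69e-10, edgeR). Sox9 ran from 17.3 to 20.9 CPM in testis and from 2.69 to 4.37 in ovary (3.16 ± 0.13, adjusted p = 1.54e-11). For Cldn11 the ranges were 49.2 to 73.9 and 7.69 to 16.0 CPM (2.96 ± 0.17, adjusted p = 5.15e-10). In these 3 genes no ovary library reached the lowest testis library. Gata1 was closer, 6.67 to 8.28 CPM in testis and 5.76 to 7.31 in ovary, with overlapping ranges (0.82 ± 0.11, adjusted p = 7.42e-06). Scaling by library totals alone shifts the median of all genes by -0.56, and there Gata1 is at 0.26 with an adjusted p of 0.0512, above the shifted median.

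Gata4, Trf and Wt1 were lower in testis than in ovary. Gata4 ran from 15.6 to 30.7 CPM in unexposed testis (median 22.8) and from 193 to 388 in ovary (median 266), a log2 difference of -3.03 ± 0.10 (adjusted p = 1.33e-12, edgeR). Trf ran from 10.6 to 14.5 CPM against 37.8 to 138 (-2.27 ± 0.30, adjusted p = 4.83e-06), and Wt1 from 30.1 to 46.9 against 79.1 to 140 (-0.999 ± 0.13, adjusted p = 4.03e-06). None of the 3 genes overlapped between tissues.

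Clu and Rhox8 did not separate the tissues firmly. Clu ran from 522 to 849 CPM in unexposed testis and from 1009 to 1736 in ovary, yet on the joint scaling its difference was -0.39 ± 0.15 (adjusted p = 0.0270, edgeR). It was 0.0025 in the F2 control libraries alone (adjusted p = 0.989) and -0.71 in the F1 controls alone. With RLE size factors, which shift the median of all genes by 0.28, it was -0.11 and not called, and it was also lost without ovary F1 control A (-0.20, adjusted p = 0.150) or without any of testis F1 control A, B or C or F2 control B. Rhox8 ran from 7.58 to 9.61 CPM in testis and from 4.03 to 35.3 in ovary, and its difference of -0.40 had a 95% interval from -1.22 to 0.41 (adjusted p = 0.368).

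**Figure D1:**
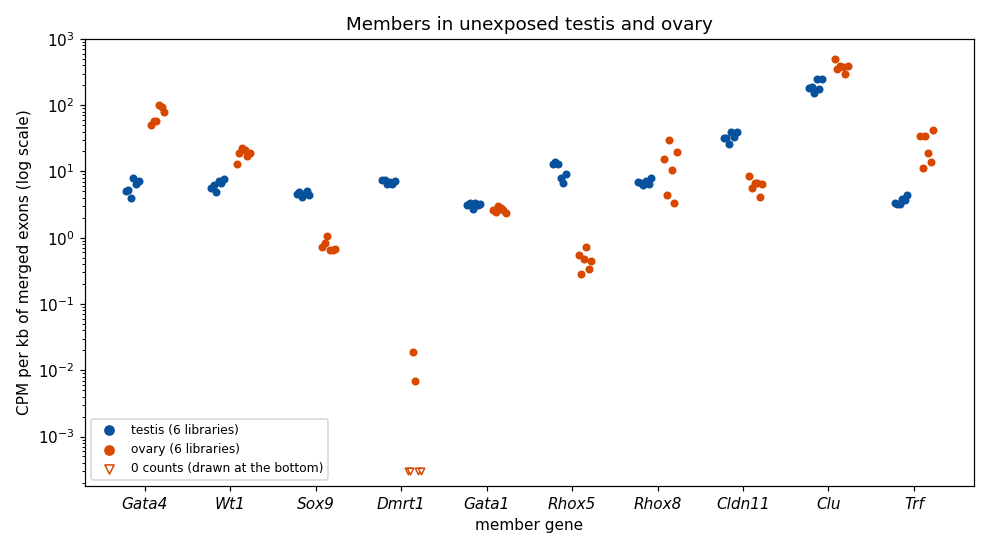
CPM per kilobase of merged exons (log scale) of the 10 genes in the 6 unexposed testis libraries (blue) and the 6 unexposed ovary libraries (orange), each point 1 library, with triangles at the bottom for 0 counts. Dmrt1, Rhox5, Sox9 and Cldn11 sit higher in testis, and Gata4, Wt1 and Trf higher in ovary; Rhox8 in ovary spans 4.03 to 35.3 CPM before division by length.

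In F1 testis no member passed the test after either dose. edgeR's quasi-likelihood test called 0 of 10 members at dose 1 and 0 of 10 at dose 2, where 0.0317% and 2.21% of 18923 genes were called, and 0 of 10 between the doses, where 0.227% were. At an unadjusted p under 0.05 there were 2, 3 and 4 members, beside 8.55%, 23.6% and 20.3% of all genes. DESeq2 called 0 at dose 1, 1 at dose 2 (Rhox8) and 0 between doses. A test for any difference among the 3 F1 groups called 0 of 10 members and 0.513% of all genes, with 4 members and 21.8% of all genes at an unadjusted p under 0.05. Member medians were 0.03 at dose 1 and 0.14 at dose 2 on the log2 scale, against 0.0035 and 0.0055 over all genes.

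Among the transcription factors, Gata4 stood above the controls at dose 2 without passing the test, and Wt1 nearly so. Gata4 stood at 19.7, 20.1 and 15.6 CPM in F1 control libraries A, B and C, at 18.4, 23.2 and 19.2 at dose 1, and at 24.1, 23.6 and 21.4 at dose 2. All dose 2 libraries lay above all controls, and the log2 difference of 0.32 ± 0.12 had an adjusted p of 0.162 by edgeR. Wt1 was 35.2, 38.7 and 30.1 CPM in controls and 45.9, 42.8 and 38.5 at dose 2, with dose 2 library C just under control B (0.29 ± 0.11, adjusted p = 0.145). Dose 1 left Wt1 among the controls, at 32.2, 36.8 and 33.3 CPM. Prm1 of elongating spermatids was lower at dose 2, at 2169 to 2633 CPM against 3596 to 6498 in F1 controls. The part of that shift in the F1 differences of Gata4, Wt1 and the genes below was not tested.

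Sox9 and Dmrt1 were lowest at dose 1. Sox9 was 19.1, 20.0 and 17.3 CPM in controls, 16.7, 13.8 and 12.8 at dose 1, and 16.0, 17.6 and 19.0 at dose 2. The dose 1 libraries lay below every control, but the log2 difference of -0.37 ± 0.12 had an adjusted p of 0.442. Without F1 control C and dose 1 A, the F1 libraries with the most Prm1 (6498 and 5835 CPM, others 2169 to 4430), edgeR called Sox9 at dose 1. Dmrt1 was 19.2, 19.3 and 17.0 CPM in controls and 15.3, 15.3 and 16.0 at dose 1, again without overlap (-0.24 ± 0.09, adjusted p = 0.506), and 17.7, 17.7 and 19.3 at dose 2. Gata1, which marks Sertoli cells and also red blood cell and mast cell precursors, stayed between 6.67 and 8.62 CPM over all F1 libraries.

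The 2 Rhox genes differed in pattern. Rhox5 was 9.59, 10.4 and 9.59 CPM in F1 controls, 9.32, 6.24 and 6.44 at dose 1, and 6.35, 8.73 and 10.8 at dose 2. Dose 1 lay below the controls with library A close to them (-0.42 ± 0.20, adjusted p = 0.611), and the dose 2 libraries overlapped with both other groups. Rhox8 was 8.27, 7.98 and 7.58 CPM in controls, 8.85, 8.65 and 7.95 at dose 1 and 8.69, 11.5 and 12.8 at dose 2. All dose 2 libraries were above the controls, B and C well above, and the difference of 0.47 ± 0.14 missed the threshold with an adjusted p of 0.0928. Fitted with all 27 testis libraries, Rhox8 passed it.

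The junction and secreted products did not pass the test in F1. Cldn11, a strand protein of the barrier's tight junctions, was 59.0, 60.1 and 49.2 CPM in controls, 61.9, 60.2 and 52.9 at dose 1, and 65.2, 61.1 and 61.5 at dose 2. Clu, a chaperone-like glycoprotein of tubule fluid, was 625, 639 and 522 CPM in controls, 679, 644 and 599 at dose 1, and 702, 658 and 627 at dose 2. Control C was the lowest F1 library in both genes. The differences at dose 2 were 0.16 ± 0.09 for Cldn11 and 0.15 ± 0.09 for Clu, with adjusted p of 0.331 and 0.300. Trf, the iron carrier, lay between 9.41 and 13.1 CPM in all F1 libraries. Libraries without overlap at dose 2 were 3 of 10 members, all higher, where 17.5% of all genes were higher without overlap. At dose 1 they were 3 of 10, all lower, where 7.27% were. From dose 1 to dose 2 all 10 members had a difference above 0 (median 0.21), where 49.8% of all genes lay below 0, and 3 of 10 (Wt1, Dmrt1 and Gata1) were higher without overlap, where 13% were.

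**Figure D2:**
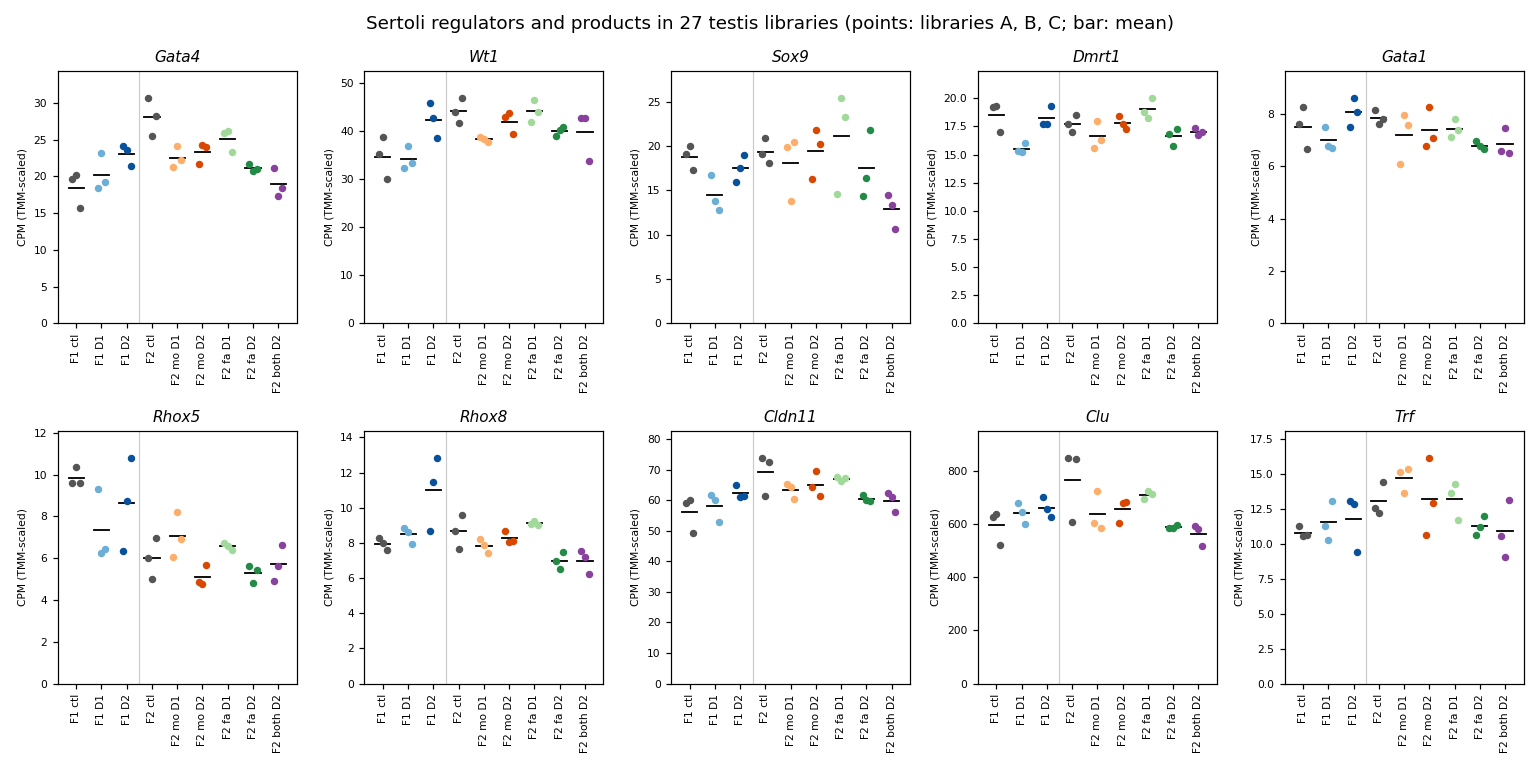
CPM of each gene in the 27 testis libraries, with F1 groups left and F2 groups right of the grey line, each point 1 library and each bar a group mean of 3 (mo, mother; fa, father; D1 and D2, the doses). Gata4 and Clu are highest in F2 from control parents (means 28.1 and 768 CPM), and Rhox5 is highest in F1 controls (mean 9.85 CPM).

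In F2 testis, Gata4 and Clu fell where the father or both parents had dose 2. With the father at dose 2, 2 of 10 members were called lower and 0 higher by edgeR's quasi-likelihood test, against 5.33% of 19241 genes called (2.39% lower). With both parents at dose 2, 2 of 10 were called lower and 0 higher, against 4.59% (2.81% lower). In these comparisons all 10 members had a log2 difference below 0, where 50.7% and 47.9% of all genes did. The member medians were -0.20 and -0.24, against -0.0037 and 0.01 over all genes. Both comparisons share their control libraries, so they are not independent of each other.

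No member passed the test in the other 3 crosses. With the mother at dose 1 edgeR called 0 of 10 members and 0.816% of all genes, with the mother at dose 2 0 of 10 and 1.7%, and with the father at dose 1 0 of 10 and 3.97%. Members at an unadjusted p under 0.05 numbered 3, 2 and 0, beside 17.9%, 18.5% and 18.4% of all genes, and DESeq2 called 1 (Gata4), 0 and 0. Member medians were -0.14, -0.09 and 0.0041. These crosses have the same control libraries as the crosses above. Across all 6 F2 groups, a single test for any difference called 1 of 10 members, Gata4 (adjusted p = 0.00982), and 6.03% of all genes. Clu came next at an adjusted p of 0.0528. Without F2 control A this test called 0 members, without control B 3 (Gata4, Rhox8 and Clu) and without mother dose 1 B 2 (Gata4 and Clu).

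Gata4, a zinc-finger factor that drives many genes of somatic gonad cells, was highest in F2 from control parents. Its levels there were 30.7, 25.4 and 28.2 CPM in libraries A, B and C. With the father at dose 2 they were 21.7, 20.7 and 20.9, and with both parents at dose 2 21.2, 17.4 and 18.5. Neither group overlapped with the controls. The log2 differences were -0.42 ± 0.09 (adjusted p = 0.0204, edgeR) and -0.57 ± 0.09 (adjusted p = 0.00255), or 1.33-fold and 1.49-fold lower. With the mother exposed Gata4 was 21.3, 24.2 and 22.2 CPM at dose 1 and 21.6, 24.2 and 24.0 at dose 2, also under every control, at adjusted p of 0.0877 and 0.116. With the father at dose 1 it was 25.9, 26.1 and 23.3 CPM and overlapped with the controls (-0.16 ± 0.09, adjusted p = 0.356).

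By group mean Gata4 ran from 28.1 ± 2.62 CPM (SD, n = 3) in F2 from control parents down through 25.1 ± 1.55 (father dose 1), 23.3 ± 1.44 (mother dose 2), 23.0 ± 1.43 (F1 dose 2), 22.6 ± 1.47 (mother dose 1), 21.1 ± 0.496 (father dose 2), 20.2 ± 2.58 (F1 dose 1) and 19.0 ± 1.97 (both parents) to 18.5 ± 2.47 in F1 controls. Neighbours from mother dose 2 downwards differed by less than their SDs, taken as the larger of each pair. The cross with both parents at dose 2 and the F1 controls thus had like levels of Gata4.

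Clu was also highest in F2 from control parents. F2 from control parents had 849, 608 and 846 CPM, the father at dose 2 gave 585, 584 and 596, and both parents at dose 2 gave 592, 582 and 517. Control library B stood well below A and C, and all libraries of both crosses lay under it, most of them closely and both-parents library C by more. The differences were -0.38 ± 0.10 (adjusted p = 0.0417, edgeR) and -0.45 ± 0.10 (adjusted p = 0.0214), or 1.31-fold and 1.37-fold. With the mother at dose 1 Clu was 606, 724 and 586 CPM, with the mother at dose 2 604, 679 and 684, and with the father at dose 1 695, 725 and 712. All 3 of these groups overlapped with the controls.

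The number of calls depended on single libraries. With the father at dose 2, no member was called without control A, without control C, without father dose 2 A or without father dose 2 B, 1 without father dose 2 C, and 4 (Gata4, Rhox8, Cldn11 and Clu) without control B. With both parents at dose 2 Gata4 was called whichever of the 6 libraries was left out (log2 difference -0.64 to -0.49), and Clu was lost without control A, control C or both-parents library B or C. In the 6 compared libraries alone, edgeR called 1 member with the father at dose 2 (Gata4) and 0 with both parents. Divided by the summed CPM of 67 other Sertoli genes, the log2 differences were -0.19 and -0.39 for Gata4 and -0.15 and -0.25 for Clu, with the father first and both parents second. Of that sum 45.8% is Slc2a3 and Ldha, which germ cells also express, and without them the values were -0.14 and -0.27 for Gata4 and -0.09 and -0.13 for Clu. These ratios carry no test.

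**Figure D3:**
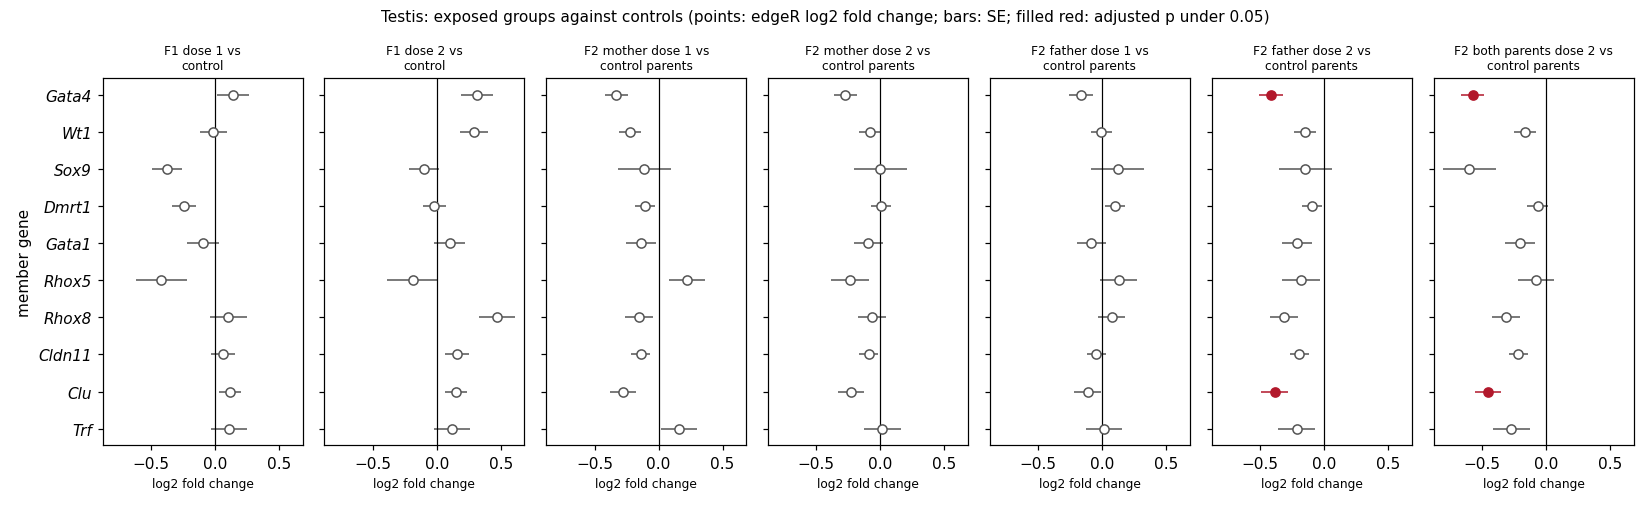
Log2 fold change with its SE for each gene in the 7 testis comparisons with control, filled red where edgeR's adjusted p was under 0.05. Only Gata4 and Clu are filled, in the crosses with the father (-0.42 and -0.38) and with both parents (-0.57 and -0.45) at dose 2, and all 10 genes lie left of 0 in these panels.

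Of the other transcription factors, Sox9 had the largest difference that was not called. It was 19.1, 20.9 and 18.1 CPM in F2 from control parents and 14.5, 13.4 and 10.6 with both parents at dose 2, without overlap (-0.60 ± 0.21, adjusted p = 0.108, edgeR), and DESeq2 called it. Its other crosses scattered widely, from 13.9 to 25.4 CPM, with the father at dose 1 alone holding 14.6, 25.4 and 23.3. Wt1 was 44.0, 41.8 and 46.9 CPM in controls and 39.0, 40.2 and 40.9 with the father at dose 2, without overlap (-0.15 ± 0.09, adjusted p = 0.303). With both parents at dose 2 Wt1 was 42.7, 42.7 and 33.8 CPM, library C alone being low. Dmrt1 lay between 15.6 and 20.0 CPM in all F2 libraries, and its 5 differences from control ran from -0.11 to 0.10. Gata1 lay between 6.07 and 8.28 CPM.

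Rhox8 came close to, but missed, the threshold. It was 8.69, 7.66 and 9.61 CPM in F2 from control parents, 6.95, 6.51 and 7.49 with the father at dose 2 and 7.53, 7.21 and 6.24 with both parents at dose 2. Both groups lay under every control (-0.31 ± 0.11 in each, adjusted p = 0.0904 and 0.0983, edgeR). Rhox5, its neighbour in the X-linked cluster, was 6.03, 5.02 and 6.97 CPM in controls and overlapped with them in every cross (4.77 to 8.21 CPM). Of 29 other Rhox genes in the table, 8 passed the filter in F2 testis and 0 of these were called by edgeR in any cross, with at most 1 at an unadjusted p under 0.05 in a cross. DESeq2 called 0 too, but gave an adjusted p to only 2 to 8 of them, depending on the cross. Many are near-identical copies whose counts are uncertain.

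Cldn11 and Trf did not pass the test in any cross. Cldn11 was 73.9, 61.5 and 72.4 CPM in controls, 61.6, 60.3 and 59.9 with the father at dose 2, and 62.4, 61.2 and 56.2 with both parents at dose 2. Control B lay among the exposed libraries, and the differences of -0.19 ± 0.07 and -0.21 ± 0.07 had adjusted p of 0.119 and 0.0984. Trf was 12.6, 12.2 and 14.5 CPM in controls and 10.6, 11.2 and 12.0 with the father at dose 2, just without overlap (-0.21 ± 0.14, adjusted p = 0.375). With both parents it was 10.6, 9.05 and 13.2 CPM. Libraries did not overlap for 6 of 10 members with the father at dose 2 and for 5 of 10 with both parents, all lower, where 14.2% and 10.6% of all genes were lower without overlap. With the mother at dose 1 they were 2 of 10 (Gata4 and Wt1) and with the mother at dose 2 1 of 10 (Gata4), where 12% and 10.7% of all genes were.

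Other Sertoli genes were read from 4 lists of 67 genes in all: transcription factors, hormones and receptors, junction and cytoskeleton genes, and secreted or metabolic products. In F1 testis edgeR called 0 of 67 at either dose, with 4 and 15 at an unadjusted p under 0.05 at dose 1 and dose 2, beside 8.55% and 23.6% of all genes. DESeq2 called 0 at dose 1 and 4 at dose 2 (3 higher, 1 lower). In F2 testis edgeR called 7 lower with the father at dose 2, 6 with both parents at dose 2, 2 with the father at dose 1, 1 with the mother at dose 1 and 0 with the mother at dose 2, and 0 higher in any cross. As shares of the 67 these are 10.4%, 8.96%, 2.99%, 1.49% and 0%, beside 5.33%, 4.59%, 3.97%, 0.816% and 1.7% of all genes. With the mother at dose 2, 14 of 67 had an unadjusted p under 0.05, beside 18.5% of all genes. DESeq2 called genes higher in 4 of the 5 crosses: 2 higher and 2 lower with the mother at dose 1, 1 and 5 with the mother at dose 2, 1 and 2 with the father at dose 1, 1 and 12 with the father at dose 2, and 0 and 8 with both parents. Calls by DESeq2 over all genes were not counted, so the shares above, all from edgeR, are no background for its calls. The list medians were -0.16 with the father at dose 2 and -0.14 with both parents, against -0.0037 and 0.01 over all genes.

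With the father at dose 2 the list genes of smallest p were Gas6, a ligand of receptors that clear dying germ cells (-0.50 ± 0.09, adjusted p = 0.00723), the adhesion protein Nectin2 (-0.33 ± 0.06, 0.0105), the steroidogenic factor gene Nr5a1 (-0.57 ± 0.12, 0.0129) and the nuclear receptor gene Nr0b1 (-0.46 ± 0.11, 0.0233). With both parents at dose 2 they were Nr5a1 (-0.72 ± 0.12, adjusted p = 0.00255), the protease inhibitor Serpina5 (-0.43 ± 0.10, 0.0253), the prostaglandin D synthase Ptgds (-1.06 ± 0.24, 0.0266) and the retinal-oxidising enzyme Aldh1a1 (-0.83 ± 0.20, 0.0333). Nr5a1 was also called with the mother at dose 1 (-0.52 ± 0.11, adjusted p = 0.0406), and Gata6 and Nr0b1 with the father at dose 1 (-0.55 ± 0.14 and -0.39 ± 0.11, adjusted p = 0.0294 and 0.0445). Nr5a1 is a Leydig cell gene as well, and in which cells the other called genes were expressed was not tested.

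Markers of Leydig cells and of other somatic cells were high in the same control group as Gata4. The summed CPM of 12 Leydig genes was 1674 to 1792 in F2 from control parents, above every library of the crosses (989 to 1610), and 1034 to 1415 in F1. Of these 12 genes edgeR called 1, 5, 5, 4 and 6 lower with the mother at dose 1, mother at dose 2, father at dose 1, father at dose 2 and both parents at dose 2, and 0 higher. Of all genes 0.816%, 1.7%, 3.97%, 5.33% and 4.59% were called in these crosses, in either direction. Nr5a1 is in both lists, and the Leydig list median was -0.45 with the father and -0.66 with both parents at dose 2. With the father at dose 1, where Gata4 was not called, it was -0.47. All 12 were detected in every testis group. The sum of 10 endothelial genes was 69.7 to 76.6 CPM in F2 from control parents, also above every library of the crosses (54.5 to 62.4) and of F1 (51.6 to 66.6). The sum of 12 macrophage genes was 122 to 130 CPM there, above all crosses but that with the mother at dose 1 (117 to 123 CPM, others 86.7 to 111). In F1 controls the macrophage sum ran from 99.7 to 142 CPM and so reached above F2 from control parents. The sum of 10 peritubular and smooth muscle genes had its highest mean there, 492 ± 31.6 CPM, and overlapped with the crosses. The 67 Sertoli genes summed to 4951 to 5227 CPM in F2 from control parents and to 4339 to 4870 CPM in the crosses. The part of cell composition in the Gata4 and Clu differences was not tested.

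**Figure D4:**
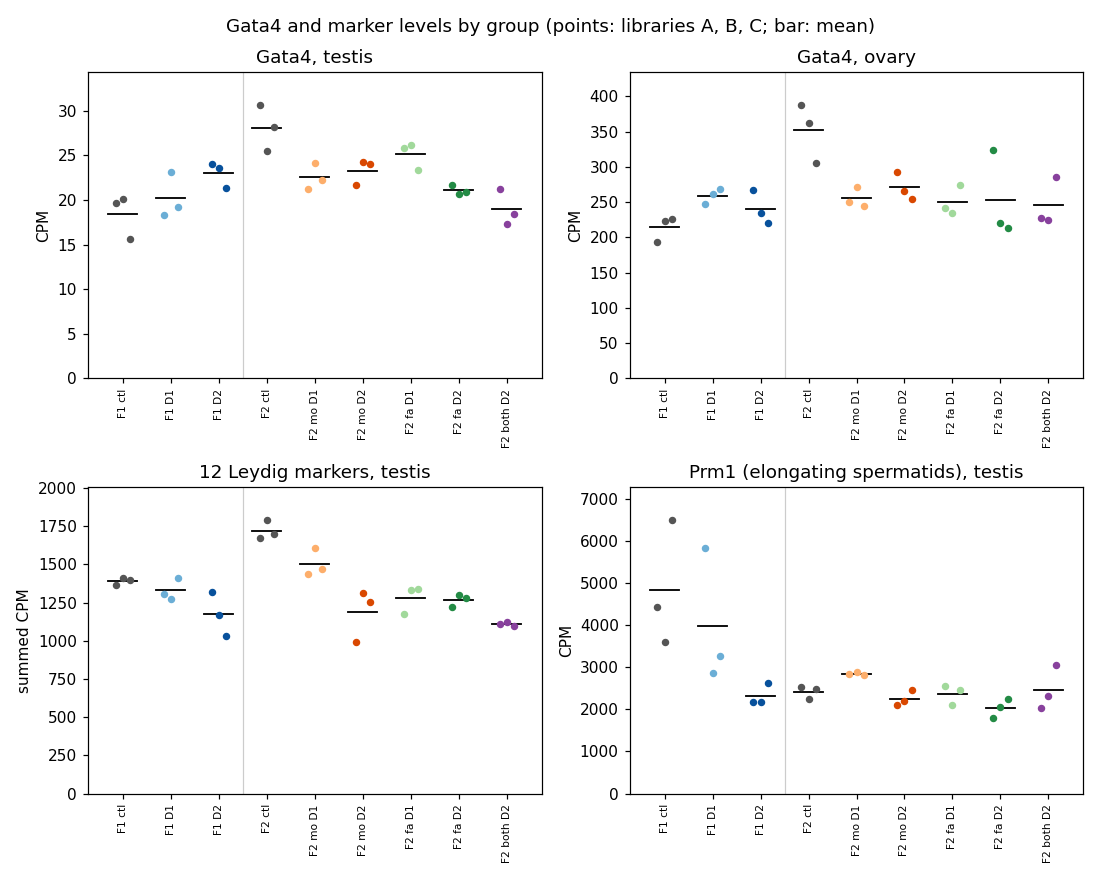
CPM by group of Gata4 in testis and ovary, of 12 summed Leydig markers in testis, and of Prm1 in testis, each point 1 library (A, B, C from left to right) and each bar a mean of 3. In F2 from control parents Gata4 is at 25.4 to 30.7 CPM in testis and 305 to 388 CPM in ovary and the Leydig sum at 1674 to 1792 CPM, while Prm1 is highest in F1 control C (6498 CPM).

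Gata4, Clu, Wt1 and Cldn11 were higher, and Rhox5 lower, in unexposed testis of F2 than of F1. In F2 from control parents, 4 of 10 members were higher and 1 lower than in F1 controls by edgeR over all 27 testis libraries, where 14.5% of 19467 genes were called (6.14% higher, 8.39% lower). Gata4 was higher by 0.61 ± 0.10 (adjusted p = 0.00202), Clu by 0.37 ± 0.10 (0.0198), Wt1 by 0.35 ± 0.09 (0.0158) and Cldn11 by 0.30 ± 0.08 (0.0159). Rhox5 fell by 0.71 on the log2 scale (SE 0.17, adjusted p = 0.0103), from 9.59, 10.4 and 9.59 CPM to 6.03, 5.02 and 6.97. Libraries did not overlap for Gata4, Wt1, Cldn11 and Trf (higher) and Rhox5 (lower), 4 and 1 of 10, where 17.1% and 18.7% of all genes did not. In Clu they overlapped, through F2 control B.

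Gata4 and Rhox5 were the members called in every alternative run for this comparison, while Wt1 (0.27 and 0.33), Cldn11 (0.23 and 0.29) and Clu (0.29 and 0.31) were lost without F1 control C or F2 control C, and Cldn11 and Clu also without F2 control A. F1 control C had the lowest Gata4, Wt1, Cldn11 and Clu of the F1 controls and the highest Prm1. Prm1 also separated the groups as a whole, with 3596 to 6498 CPM in F1 controls against 2247 to 2541 in F2 from control parents and 2169 to 2633 at F1 dose 2. The 12 elongating spermatid genes summed to 26582 to 33955 CPM in F1 controls, 23178 to 26185 in F2 from control parents and 24166 to 26176 at F1 dose 2, without overlap with the F1 controls. The part of this shift in the member differences was not tested. Generation and anything else that differed between the F1 and F2 animals or libraries cannot be told apart. Of the 67 Sertoli list genes 10 were higher and 3 lower, among them the retinoic acid-degrading enzyme Cyp26b1 (0.64 ± 0.13, adjusted p = 0.00404), the glucose transporter Slc2a3 (0.34 ± 0.07, 0.00650) and Nr5a1 (0.46 ± 0.11, 0.00941). In the Rhox cluster list 3 of 10 tested genes were called, all lower, led by Rhox3c (-2.47 ± 0.51, adjusted p = 0.00453), which has close copies and is uncertain.

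The exposure effects in F2 testis were also set against the F1 effect of the same dose, a contrast added after the data were seen. edgeR called 1 of 10 members lower with the mother at dose 2 (Gata4), where 5.83% of 19467 genes were called in either direction. It called 3 lower with the father at dose 2 (Gata4, Rhox8 and Clu), where 5.85% were, and 5 lower with both parents at dose 2 (these and Wt1 and Cldn11), where 10.6% were. At dose 1 it called 0 of 10, where 0.18% of all genes were called with the mother and 0.668% with the father exposed, and 3 and 2 members had an unadjusted p under 0.05, beside 13.9% and 12% of all genes.

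Rhox5 ran high in F1 and low in F2. All 18 F2 testis libraries had 4.77 to 8.21 CPM of Rhox5, and the 9 F1 libraries 6.24 to 10.8 CPM. By group mean the 3 F1 groups ranked highest, from 9.85 ± 0.438 CPM in controls through 8.62 ± 2.22 at dose 2 to 7.33 ± 1.72 at dose 1. F2 groups followed from 7.07 ± 1.07 CPM (mother dose 1) to 5.10 ± 0.499 (mother dose 2). Each pair of neighbours in this order differed by less than the larger SD of the pair.

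Profiles over the 27 testis libraries, with the mean of each generation removed, were compared by Pearson's r across 16300 genes with a mean of at least 1 CPM; these libraries share groups and controls, so r is a description. Closest to Gata4 were Tnfrsf1a (r = 0.899), Zyx (0.872) and Slc52a3 (0.867). Closest to Clu were Tmem184a (0.923), Lrp10 (0.893) and Psap (0.883), and to Cldn11 Bscl2 (0.862), Lrp10 (0.859) and Slc52a3 (0.853). Clu and Cldn11 were among the 100 genes nearest to Gata4, and Gata4 among the 100 nearest to each of them. Of the Sertoli list genes, Axl was among the 100 nearest to Gata4, Rhox8, Cldn11 and Clu. Nr5a1 was among those nearest to Gata4, Clu and Gata1, and Vim to Sox9, Gata1 and Rhox8. Espn was among those nearest to Dmrt1 and Rhox8, and Sox8 to Dmrt1 and Clu.

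Nearest neighbours of the other members were as follows. Wt1 was closest to Cdc42bpb (r = 0.914), Wipf3 (0.913) and Camkk2 (0.908), and Rhox5 to Nudc (0.861), Ndufb10 (0.838) and Rpl8 (0.836). For Rhox8 they were Mmp14 (0.799), Spag7 (0.791) and Eef1aknmt (0.781), for Sox9 Itga3 (0.796), Ppp1r3c (0.743) and Marveld1 (0.730), and for Dmrt1 Atad3a (0.789), Ninl (0.786) and Pygb (0.774). Gata1 was nearest to Prpsap1 (0.796), Tonsl (0.706) and Ogdhl (0.701), and Trf to Aifm2 (0.698), Pmepa1 (0.690) and Eln (0.687). None of these neighbours is in the Sertoli lists. Gata1 had Clu, and Rhox8 had Cldn11, among its 100 nearest genes, while Wt1, Sox9, Dmrt1, Rhox5 and Trf had no other member there. Wt1 was itself among the 100 genes nearest to Cldn11.

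In ovary, the contrast tissue, no member was called in any exposure comparison. edgeR called 0 of the 9 tested members in the 3 F1 comparisons and in each of the 5 F2 crosses. Of all genes it called 0% in the F1 comparisons and in the crosses with an exposed mother or the father at dose 1, 0.00573% with the father at dose 2 and 0.688% with both parents at dose 2. Per comparison 1 or 2 members had an unadjusted p under 0.05, beside 4.71% to 24.5% of all genes. DESeq2 called 1, Gata4 with both parents at dose 2, and 0 in the other 7 comparisons.

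Gata4 in ovary again had its highest group in F2 from control parents. It was 388, 362 and 305 CPM there, and 193, 223 and 226 in F1 controls. With both parents at dose 2 it was 228, 225 and 286 CPM, under every control (-0.50 ± 0.15, adjusted p = 0.0733, edgeR), and with the father at dose 2 324, 220 and 214, library A among the controls (-0.48 ± 0.15, adjusted p = 0.192). The other crosses ran from 235 to 293 CPM, also under every control. Gata4 was thus lower without overlap in 4 of 5 crosses, where 7.71% (mother dose 1), 5.42% (mother dose 2), 8.83% (father dose 1) and 15% (both parents) of all genes were. These crosses were all compared with the same control libraries, so they are not independent of each other. The 12 granulosa markers, which share no gene with the members, summed to 5452 to 7477 CPM in F2 from control parents and 3989 to 7096 CPM in the crosses. Their part in the Gata4 levels was not tested.

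Sox9 was scarce in ovary, 1.88 to 6.92 CPM, and Gata1 was 4.35 to 10.5 CPM. Sox9 was above every F2 control (2.69 to 2.79 CPM) with the mother at either dose and the father at dose 2. Its differences there were 0.31 ± 0.23 (mother dose 1), 0.69 ± 0.23 (mother dose 2) and 0.19 ± 0.23 (father dose 2). By edgeR their adjusted p were 0.729, 0.731 and 0.734. In the other crosses Sox9 overlapped with the controls. Gata1 was 6.96, 6.30 and 5.76 CPM in F2 from control parents, and 10.5, 8.12 and 7.10 with the father and 7.20, 7.80 and 9.78 with both parents at dose 2, above every control in each, where 10.1% and 11.8% of all genes were higher without overlap (0.43 ± 0.18 and 0.40 ± 0.18, adjusted p = 0.274 and 0.190, edgeR). In testis the same crosses had Gata1 below every control, and the difference between tissues was not tested. In ovary at F1 dose 2, Gata1 went the other way. It was at most 4.93 CPM there, below every F1 control (5.89 CPM or more), with a difference of -0.44 ± 0.21 (adjusted p = 0.413, edgeR). Clu in ovary lay between 802 and 1736 CPM. It was lower at F1 dose 2 than in every F1 control (802, 1051 and 910 against 1736, 1206 and 1322 CPM), where 11.9% of all genes were lower without overlap, and its difference of -0.62 ± 0.23 had an adjusted p of 0.411.

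Rhox8 and Trf varied widely among ovary libraries of the same group. Rhox8 spanned 2.60 to 35.3 CPM, 13.6-fold, and Trf 34.8 to 138 CPM, 3.96-fold, where in testis they spanned 2.05-fold and 1.78-fold. Rhox5 spanned 11.6-fold in ovary, on 3 to 43 counts a library. Of the 5 ovary libraries highest in Rhox8, 4 were among the 5 highest in Trf: F1 control C, F1 dose 1 C, F2 control C and both-parents dose 2 C. These had 35.3, 27.7, 23.2 and 20.2 CPM of Rhox8 and 112, 129, 138 and 125 CPM of Trf. They come from 4 groups, exposed and unexposed, and their companions A and B were mostly far lower. Of the 6 libraries highest in each gene 5 were shared, which adds F1 control A (18.3 CPM of Rhox8 and 113 of Trf). Within-group coefficients of variation averaged 53.0% for Rhox8, 43.4% for Rhox5 and 41.7% for Trf, against 7.51%, 13.4% and 11.7% in testis. What size of difference could be detected for these genes in ovary was not tested.

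**Figure D5:**
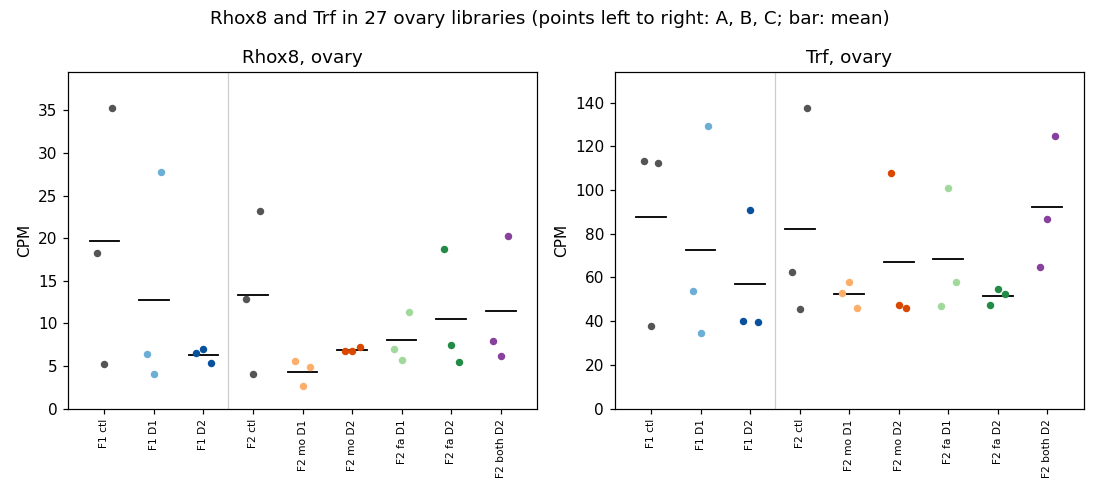
CPM of Rhox8 and Trf in the 27 ovary libraries by group, each point 1 library (A, B, C from left to right) and each bar a mean of 3. Library C is high in F1 control, F1 dose 1, F2 control and both-parents dose 2 (20.2 to 35.3 CPM of Rhox8).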

How the data were processed

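Testis and ovary mRNA of mice was sequenced with 100 nt reads. The deposited values are raw counts per gene that the authors made, per the submitters' processing notes with bcl2fastq 2.20, FastQC 1.19, TopHat2 2.1.1, Bowtie2 2.4.5, SAMtools 1.13 and featureCounts 2.0.3 on mm39, with DESeq2 1.32.0 also listed. For the strand setting and annotation of the counting, nothing was stated in the sources used here. Whether overlapping antisense reads were counted with a gene is thus not known, and in these counts they cannot be set apart. Of 26264 entries, 133 had no gene identifier. They were kept, and no column went unused.

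Counts were tested with edgeR 4.0.16 (R 4.3.3, TMM scaling, filterByExpr with a minimum count of 10, robust quasi-likelihood fit, Benjamini-Hochberg over all genes, threshold 0.05). In each tissue 1 fit held the 9 F1 libraries and another the 18 F2 libraries. The comparison of F1 with F2 controls and the differences between F2 and F1 effects used 27 testis libraries; the latter were added after seeing the data. Intervals are ± 1.96 SE. DESeq2 1.42.0, other scalings, no filter, other sets of libraries and the replicate letter as a block were the alternatives. Shares of all genes called are those of the main edgeR fits only. The fit was tested on simulated data with 200 changed genes. Replicates differed by a chi-square per gene of at least 3.24. Length is that of merged exons in GENCODE (GRCm38), used for length only.

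The 10 genes and the marker lists were chosen with earlier results of these data known. All 10 are named throughout; of the Sertoli and Rhox lists, at most the 4 called genes with the smallest p per comparison; and the 3 genes of highest r per member, from log2 CPM with a prior count of 2.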

Additional observations from a re-analysis of the deposited data

Results flagged for a closer look

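The differences from control of 5 of the 10 genes were not alike in the generations in testis. The F2 effect of a cross minus the F1 effect of the same dose was tested as a contrast in edgeR over 27 testis libraries, and all calls were lower in F2. For Gata4 this difference was -0.59 ± 0.15 (SE) with the mother at dose 2 (adjusted p = 0.0221), -0.73 ± 0.15 with the father at dose 2 (0.0113) and -0.88 ± 0.15 with both parents at dose 2 (0.00199). Gata4 was above the F1 controls at F1 dose 2 and below the F2 controls in these F2 crosses. For Rhox8 it was -0.78 ± 0.17 with the father (adjusted p = 0.0140) and -0.77 ± 0.17 with both parents (0.00804), where Rhox8 at F1 dose 2 was 8.69, 11.5 and 12.8 CPM.

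For Clu the difference was -0.54 ± 0.15 with the father (adjusted p = 0.0330, edgeR) and -0.59 ± 0.15 with both parents (0.0136). With both parents Wt1 was at -0.44 ± 0.13 (adjusted p = 0.0359) and Cldn11 at -0.36 ± 0.11 (0.0438). DESeq2 was not run on these contrasts. The 5 contrasts share F2 control libraries, and those at dose 2 share all F1 libraries too. Each contrast includes, by construction and with its sign turned, the difference between F2 from control parents and F1 controls. That difference was 0.61 for Gata4, 0.37 for Clu, 0.35 for Wt1 and 0.30 for Cldn11. The contrasts at dose 2 also include the F1 difference at dose 2. There Prm1 was 2169 to 2633 CPM, against 3596 to 6498 in F1 controls, and the part of this shift was not tested. Gata4 itself averaged 23.0 CPM at F1 dose 2. It averaged 23.3, 21.1 and 19.0 CPM with the mother, the father and both parents at dose 2. Gata4 and Rhox8 with the father and both parents at dose 2, and Clu with both parents, were called in all 15 alternatives each. Gata4 with the mother was called in 9 of 15, Clu with the father in 8, Wt1 in 9 and Cldn11 in 7, each being lost among others without F1 control C (-0.49, -0.46, -0.37 and -0.29) and without F2 control A or C.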

How the results depend on the processing

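Counts of members called are given first. With DESeq2 it was 1 at F1 dose 2, mother dose 1 and, in ovary, both parents at dose 2, and 3 in place of 2 (Sox9 added) in testis with both parents at dose 2. With all 27 testis libraries it was 1 at F1 dose 2. In the 6 compared libraries alone it was 1 with the father and 0 with both parents at dose 2, with fewer libraries behind the spread. Without F1 control C and dose 1 A (chosen after seeing the data) it was 1 at F1 dose 1 and for any F1 difference (Sox9), and 2 for F2 against F1 controls (Gata4 and Rhox5). Leaving out 1 library gave 0 to 1 for any F1 difference (1 without dose 1 A), 0 to 2 for each mother's dose (2 without F2 control B), 0 to 4 for the father and 1 to 4 for both parents at dose 2, and 0 to 3 for any F2 difference (0 without control A, 3 without control B, 2 without mother dose 1 B). It gave 0 to 1 in ovary for the father at dose 2 (Gata4, without father dose 2 A), 2 to 5 for F2 against F1 controls (3 without F2 control A, 2 without F1 or F2 control C), and 0 to 3, 2 to 5 and 3 to 5 for the F2 minus F1 effects with the mother, father and both parents at dose 2. Fits without a library take its group's remaining 2 to vary like the other groups. Without F2 control A, Gata4 was -0.34 (adjusted p = 0.127, edgeR) with the father and -0.49 (0.0328) with both parents, and Clu -0.30 (0.197) and -0.36 (0.147). Clu between tissues was 0.0025 in F2 control parents alone, turning its sign. Where no construction of the alternative shows it, the cause was not tested.

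All 3 replicate letters had correlated deviations above 0.1 in 2 of 14 comparisons, both in ovary (F1 dose 1, 0.205 to 0.375, and F2 mother dose 1, 0.104 to 0.278), and in no testis comparison. With the letter as a replicate block 0 members were called in these 2, as without it. With the letter as a replicate block, 2 members were called with the father (Gata4 -0.41) and 2 with both parents at dose 2 (Gata4 -0.57), and 4 in place of 3 for the F2 minus F1 effect with the father. Depth did not limit Clu, but testis libraries held only 214 to 337 counts of Gata1, 169 to 451 of Rhox5 and 217 to 536 of Rhox8, and ovary libraries 3 to 43 of Rhox5.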
